A study of Oryctolagus cuniculus with 8 samples.

Results

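The genes described here encode elastic fibre proteins, members of the fibulin family and a further matrix protein. They are the fibrillins FBN1 and FBN2, elastin (ELN), the fibulins FBLN1, FBLN2, FBLN5, FBLN7 and EFEMP1 (fibulin-3), the microfibril-associated glycoprotein MFAP5, and ABI3BP, a secreted protein of the extracellular matrix. Members were taken by symbol from a fixed list of names. Of these 10 symbols, 9 each matched 1 row of the 20586 genes listed, and ELN was not analysed here. The cells were stromal cells at passage 1, expanded in serum-containing growth medium and given no differentiation treatment. Infrapatellar fat pad stem cells (IPFSCs) came from the fat pad behind the patellar tendon of the knee, and subcutaneous adipose stem cells (ScASCs) from inguinal subcutaneous fat of the same 4 male New Zealand white rabbits, which were 4 months old. RNA-seq was done on 4 IPFSC and 4 ScASC libraries, and the question was how adherent cultures from the joint fat pad differ from those of subcutaneous fat.

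An elastic fibre has a core of cross-linked elastin and a coat of microfibrils. Fibrillin molecules assemble end to end into these microfibrils, which also hold latent growth factors of the TGFβ family in the matrix. Fibulins are calcium-binding glycoproteins with repeated EGF-like modules, and several of them link elastin to microfibrils and to the lysyl oxidases that cross-link it. In skin and subcutaneous connective tissue these fibres give the tissue its recoil.

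All values are reads per kilobase scaled to sequencing depth (RPKM), recovered from the deposited log2 values, so levels of different genes can be set side by side. The values carry no read counts, so the depth of each library in reads is unknown. Relative depth was estimated from the most common ratio of the values of low genes between libraries, taken to mark genes with equal read counts. It was 0.883 to 0.946 in IPFSCs and 0.825 to 1.00 in ScASCs, with the deepest library at 1. Markers of stromal fibroblasts were abundant, with a summed level of 6884 to 10502 RPKM in IPFSCs and 11359 to 16828 RPKM in ScASCs for 10 of 11 genes, of which CD44 rose, COL3A1 fell and 8 did not pass the test. The 7 macrophage and leukocyte markers summed to 13.4 to 27.8 RPKM in IPFSCs and 11.8 to 22.6 RPKM in ScASCs. Most of this was CD68, at 12.7 to 25.9 RPKM in IPFSCs and 10.6 to 21.5 RPKM in ScASCs, while CD14, AIF1 and CSF1R reached at most 1.06 RPKM and PTPRC, CD163 and TYROBP were listed at 0 in all 8 libraries. The 6 endothelial markers summed to at most 0.844 RPKM in IPFSCs and 2.63 RPKM in ScASCs. A gene was tested where its mean exceeded 1 RPKM in at least 1 cell type, which 11294 genes did, among them all 9 listed here. Log2 fold changes compare IPFSCs with ScASCs after 1 is added to each RPKM, so that changes at a few RPKM or below come out too small, and adjusted p-values are Benjamini-Hochberg values from limma over the tested genes.

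Of the 9 genes, ABI3BP, EFEMP1 and FBLN2 fell in IPFSCs, FBLN7 rose, and 5 did not pass the test at an adjusted p under 0.05. Over all tested genes 4.98% passed: 2.31% fell and 2.67% rose. With the replicate number as a block, which takes libraries of the same number as coming from the same rabbit, FBN2 fell and MFAP5 rose as well, which gave 4 lower and 2 higher genes. Over all tested genes 8.05% then passed, 3.74% lower and 4.31% higher. The values of IPFSCs and ScASCs did not overlap for 5 of the 9 genes, 4 of them lower and 1 higher in IPFSCs, against 11.8% of all tested genes (5.73% lower and 6.07% higher). The median log2 fold change was −0.37 over the 9 genes and −0.0035 over all tested genes, and the median size of the change, whatever its sign, was 1.84 over the 9 genes and 0.13 over all tested genes. The genes were chosen with earlier results of these data known, so these contrasts are a description only. The 9 genes also varied more within a cell type. Their median coefficient of variation (SD over mean) was 49.0% in IPFSCs and 38.5% in ScASCs, against 14.7% and 14.9% over all tested genes. In bulk RNA, fewer cells of a type and less RNA per cell cannot be told apart.

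**Figure D1:**
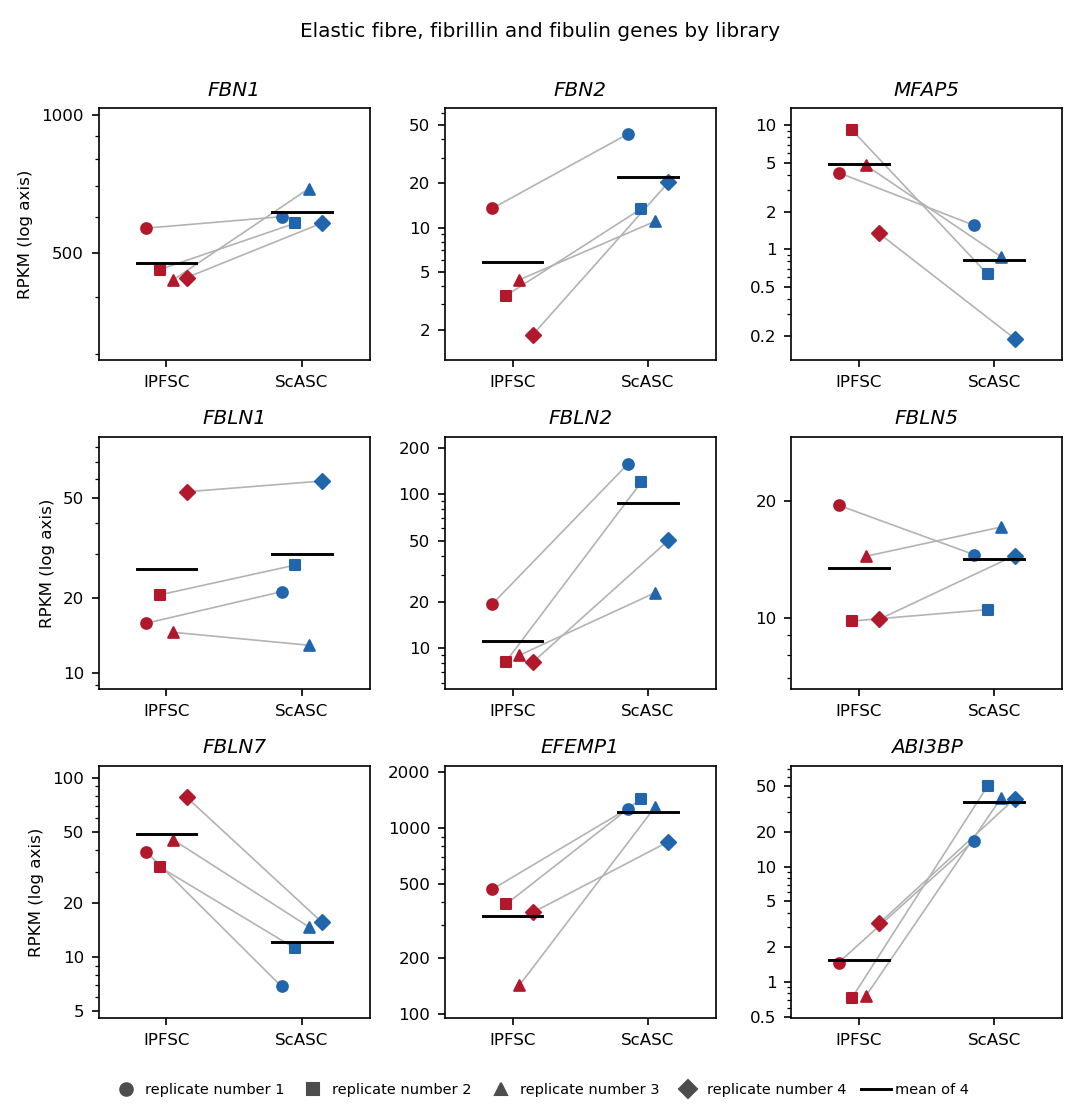
RPKM of the 9 genes in each library, on a log axis of its own for each gene, with IPFSCs in red at the left and ScASCs in blue at the right. Symbols and grey lines join libraries of the same replicate number, and black bars are means of 4 libraries; ABI3BP, EFEMP1, FBLN2 and FBN1 lie lower and FBLN7 higher in every IPFSC library than in any ScASC library.

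Fibrillins are the backbone of the microfibril. FBN1, the main fibrillin of adult tissue (ENSOCUG00000003866), had 566, 459, 436 and 441 RPKM in IPFSC replicates 1 to 4, against 600, 580.0, 690.3 and 581 RPKM in ScASC replicates 1 to 4. The lowest ScASC library thus stood just above the highest IPFSC library, and the cell types did not overlap. The mean was 476 ± 61.0 RPKM in IPFSCs and 613 ± 52.5 RPKM in ScASCs (SD, n = 4 each). Its log2 fold change of −0.37 (95% confidence interval −0.62 to −0.12) missed the threshold in limma (adjusted p = 0.107). Of the 9 genes, FBN1 varied least among libraries of a cell type, with a coefficient of variation of 12.8% in IPFSCs and 8.57% in ScASCs.

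FBN2, the fibrillin best known from developing tissue (ENSOCUG00000008226), was far less abundant. It had 13.5, 3.44, 4.41 and 1.87 RPKM in IPFSC replicates 1 to 4, against 43.4, 13.5, 11.0 and 20.3 RPKM in ScASC replicates 1 to 4. Replicate 1 was the highest library in either cell type, and IPFSC replicate 1 lay within the ScASC range. Within each replicate number the IPFSC library was the lower one. Its log2 fold change was −1.84 (95% confidence interval −3.08 to −0.60, adjusted p = 0.107 in limma). With the replicate number as a block the interval was −2.49 to −1.19 and the adjusted p was 0.0126; without IPFSC replicate 1 and with no block it was 0.0392.

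FBN2 amounted to 2.39%, 0.748%, 1.01% and 0.423% of the FBN1 level in IPFSC replicates 1 to 4, against 7.24%, 2.32%, 1.60% and 3.50% in ScASC replicates 1 to 4. FBN1 transcripts outnumbered those of FBN2 in every library, per unit of length. The log2 ratio of FBN2 to FBN1, with 1 added to either RPKM, averaged −6.40 ± 0.83 over the IPFSC libraries and −4.93 ± 0.89 over the ScASC libraries (SD, n = 4 each). This difference of −1.47 had p = 0.0857 in a two-sided exact permutation test over 70 assignments of the libraries. With labels exchanged only within replicate numbers, p was 0.125, the smallest value that 16 assignments allow. FBN3, the third fibrillin gene, was listed at 0 in all 8 libraries.

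MFAP5 (ENSOCUG00000002407) encodes MAGP2, a small glycoprotein that binds fibrillin along the microfibril. It had 4.16, 9.16, 4.78 and 1.35 RPKM in IPFSC replicates 1 to 4, against 1.57, 0.633, 0.875 and 0.191 RPKM in ScASC replicates 1 to 4. Replicate 4 was the lowest library in either cell type, and IPFSC replicate 4 lay below ScASC replicate 1, so the cell types overlapped. In all 4 replicate numbers the IPFSC library was the higher one. On the log2 scale the difference was 1.56 (standard error 0.42, adjusted p = 0.0778 in limma); the adjusted p was 0.0270 with the replicate number as a block and 0.0147 without IPFSC replicate 4. With 0.1 in place of 1 added to the RPKM, the log2 fold change was 2.41 and the adjusted p 0.0811.

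Among the fibulins, EFEMP1 carried most of the transcripts, and it fell in IPFSCs. EFEMP1 encodes fibulin-3, whose loss in mice reduces elastic fibres in fascia. Its RPKM (ENSOCUG00000014657) was 470, 389, 143 and 353 in IPFSC replicates 1 to 4, against 1276, 1446, 1297 and 846 in ScASC replicates 1 to 4. No IPFSC library reached the level of any ScASC library, and IPFSC replicate 3 stood below the other 3. The mean was 339 ± 139 RPKM in IPFSCs and 1216 ± 258 RPKM in ScASCs (SD, n = 4 each), which is 3.59 times lower in IPFSCs. In limma this difference was −1.94 on the log2 scale (adjusted p = 0.0166, standard error 0.35), and the call was lost without ScASC replicate 2 (adjusted p = 0.0554). In ScASCs EFEMP1 ranked 23rd by mean RPKM among the 11294 tested genes, and in IPFSCs 211th.

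FBLN2, a fibulin of basement membranes and vessel walls (ENSOCUG00000005900), fell to 19.4, 8.20, 9.02 and 8.15 RPKM in IPFSC replicates 1 to 4, against 157, 120, 22.9 and 50.1 RPKM in ScASC replicates 1 to 4. The cell types did not overlap, but the ScASC libraries spread widely, and ScASC replicate 3 came close to IPFSC replicate 1. The means were 11.2 ± 5.48 RPKM in IPFSCs and 87.3 ± 61.6 RPKM in ScASCs (SD, n = 4 each). The log2 fold change of −2.60 (standard error 0.57) had an adjusted p of 0.0359 in limma. This call was lost when any library other than IPFSC replicate 1 or ScASC replicate 3 was left out (adjusted p = 0.0631 to 0.107 in the 6 cases) and with no filter on low values (adjusted p = 0.0563); with the replicate number as a block it was 0.0111.

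ACTA2, the smooth muscle actin gene, had 912, 1379, 682 and 115 RPKM in IPFSC replicates 1 to 4, against 2269, 1025, 98.2 and 279 RPKM in ScASC replicates 1 to 4. In ScASCs its libraries thus stood in the same order as those of FBLN2, whereas in IPFSCs they did not. The smooth muscle and pericyte list, of which 5 of 6 genes were listed, summed to 117 to 1381 RPKM in IPFSCs and 99.9 to 2274 RPKM in ScASCs. Of the 3 genes tested, ACTA2 and MYH11 did not pass (adjusted p = 0.983 and 0.926 in limma). MYOCD, a smooth muscle regulator, fell to 0.0508 to 0.0740 RPKM in IPFSCs, against 0.998 to 3.61 RPKM in ScASCs (adjusted p = 0.00908 in limma). DES, below the filter, was at 0.225 to 0.529 RPKM in IPFSCs and at most 0.0304 RPKM in ScASCs, the opposite direction to MYOCD, and RGS5 stayed under 1 RPKM in all libraries. The part of such cells in the FBLN2 result was not tested.

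FBLN7 was the gene that rose. It encodes fibulin-7, a cell adhesion protein first described in developing teeth. FBLN7 (ENSOCUG00000002898) had 39.0, 32.0, 45.4 and 78.3 RPKM in IPFSC replicates 1 to 4, against 6.88, 11.2, 14.8 and 15.7 RPKM in ScASC replicates 1 to 4. Every IPFSC library was above every ScASC library, and replicate 4 was the highest in either cell type. The mean was 48.7 ± 20.5 RPKM in IPFSCs and 12.2 ± 4.01 RPKM in ScASCs (SD, n = 4 each), or 4.00 times higher in IPFSCs. Fitted in limma, the difference was 1.89 on the log2 scale (95% confidence interval 1.18 to 2.60, adjusted p = 0.0108), and the adjusted p stayed between 0.00347 and 0.0390 in all alternatives tried.

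FBLN1 and FBLN5 showed no difference that passed the test. FBLN1 encodes a fibulin of basement membranes and elastic fibres. FBLN1 (ENSOCUG00000011137) had 15.8, 20.6, 14.6 and 53.1 RPKM in IPFSC replicates 1 to 4, against 21.2, 27.0, 12.9 and 58.7 RPKM in ScASC replicates 1 to 4. The libraries followed the replicate number: replicate 4 was highest and replicate 3 lowest in both cell types, and the full order was the same. The same order in both cell types was seen in 10.6% of all tested genes and, among the 9 genes, in FBLN1 only. Between the cell types the log2 fold change was −0.19 (95% confidence interval −1.34 to 0.96, adjusted p = 0.936 in limma). With the replicate number as a block its standard error was 0.11 in place of 0.51, the interval was −0.46 to 0.077, and the adjusted p was 0.371.

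FBLN5, which binds elastin and lysyl oxidases and without which mice form disorganised elastic fibres, was the gene with the smallest difference. FBLN5 (ENSOCUG00000013175) had 19.5, 9.80, 14.4 and 9.90 RPKM in IPFSC replicates 1 to 4, against 14.5, 10.5, 17.1 and 14.5 RPKM in ScASC replicates 1 to 4. The ranges lay almost on top of each other, with means of 13.4 ± 4.60 RPKM in IPFSCs and 14.1 ± 2.74 RPKM in ScASCs (SD, n = 4 each). They differed by a log2 fold change of −0.11 (95% confidence interval −0.63 to 0.41, adjusted p = 0.912 in limma).

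ABI3BP, which encodes a secreted matrix protein also made in heart and lung, fell most of the 9 genes. ABI3BP (ENSOCUG00000005336) had 1.47, 0.730, 0.750 and 3.22 RPKM in IPFSC replicates 1 to 4, against 16.9, 50.2, 39.5 and 38.9 RPKM in ScASC replicates 1 to 4. The highest IPFSC library was far below the lowest ScASC library. The mean was 1.54 ± 1.17 RPKM in IPFSCs and 36.4 ± 14.0 RPKM in ScASCs (SD, n = 4 each), which is 23.6 times lower in IPFSCs. The log2 fold change was −3.88 (standard error 0.38, adjusted p = 0.00133 in limma), and the adjusted p lay between 6.92e-04 and 0.00694 in all alternatives tried. By mean RPKM, ABI3BP stood at the 77.4th percentile of tested genes in ScASCs and at the 6.47th percentile in IPFSCs.

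**Figure D2:**
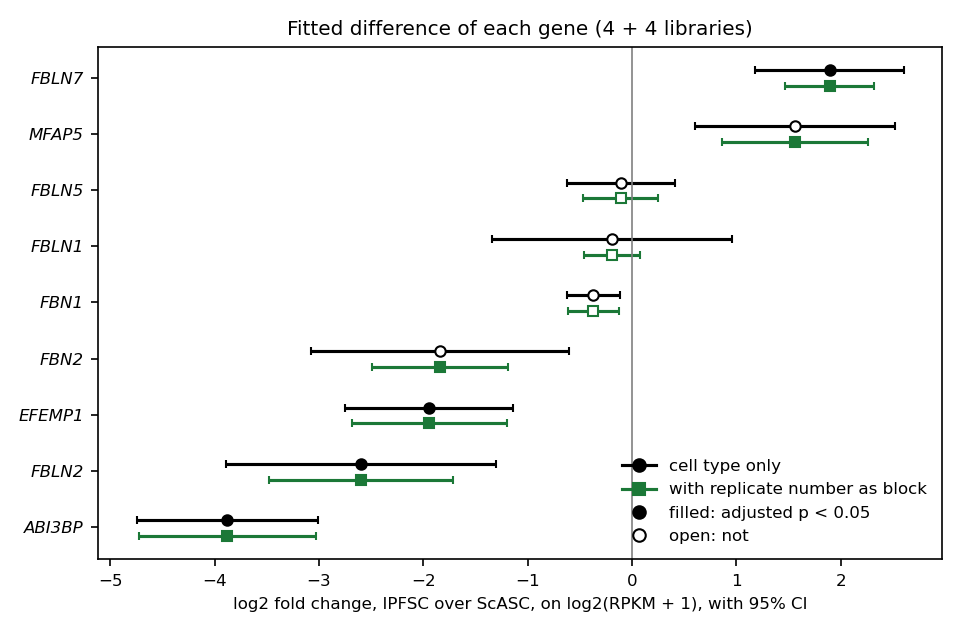
Log2 fold change of each gene, IPFSCs over ScASCs, with its 95% confidence interval from limma, without (black circles) and with (green squares) the replicate number as a block; filled symbols had an adjusted p under 0.05. The point estimates are the same in both fits, and all 9 intervals are narrower with the block, that of FBLN1 the most.

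Summed over the 9 genes, the level averaged 926 ± 195 RPKM in IPFSCs and 2032 ± 279 RPKM in ScASCs (SD, n = 4 each), given here as a description without a test. The sum was 672 to 1149 RPKM in IPFSCs and 1626 to 2258 RPKM in ScASCs, so that the ranges did not meet. FBN1 and EFEMP1 together made up 83.6% to 91.0% of the sum in IPFSCs and 87.8% to 94.3% in ScASCs. Within the sum, FBN1 held 52.5% ± 8.38 in IPFSCs and 30.6% ± 4.53 in ScASCs, and EFEMP1 held 35.3% ± 9.55 in IPFSCs and 59.3% ± 5.16 in ScASCs (SD, n = 4 each). The ratio of EFEMP1 to FBN1 was 0.327 to 0.848 in IPFSCs and 1.46 to 2.49 in ScASCs.

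**Figure D3:**
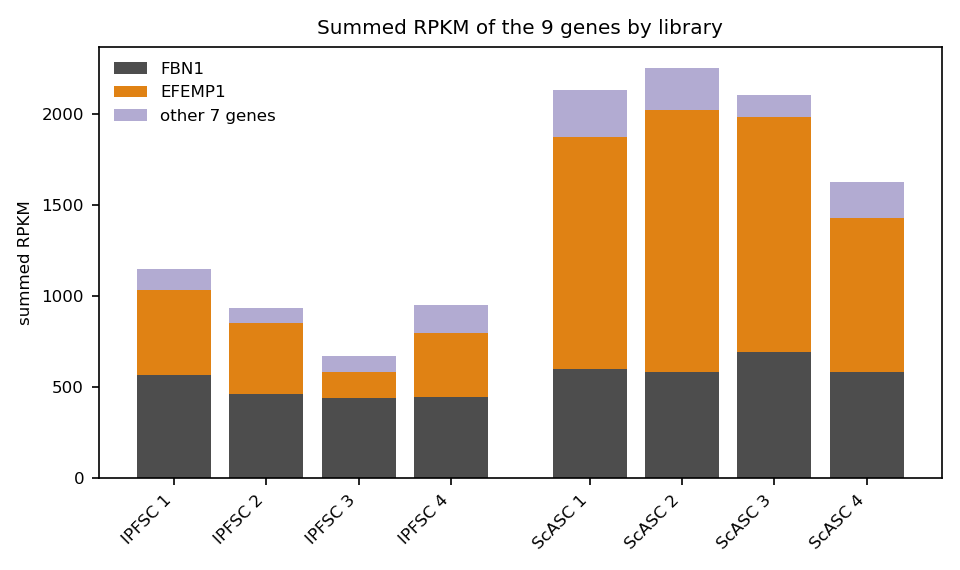
Summed RPKM of the 9 genes in each library, with IPFSC libraries at the left and ScASC libraries at the right, split into FBN1, EFEMP1 and the other 7 genes. The FBN1 segment spans 436 to 566 RPKM in IPFSCs and 580.0 to 690.3 RPKM in ScASCs, and the EFEMP1 segment 143 to 470 RPKM in IPFSCs and 846 to 1446 RPKM in ScASCs.

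The order of the levels differed between the cell types. In IPFSCs it was FBN1, EFEMP1, FBLN7, FBLN1, FBLN5, FBLN2, FBN2, MFAP5 and ABI3BP, from high to low. Among neighbours in that order, EFEMP1 and FBLN7 did not overlap in their libraries, and all other neighbours did. In ScASCs the order was EFEMP1, FBN1, FBLN2, ABI3BP, FBLN1, FBN2, FBLN5, FBLN7 and MFAP5. There EFEMP1 lay above FBN1, FBN1 above FBLN2 and FBLN7 above MFAP5 without overlap, and the other neighbours overlapped. Within a cell type, 8 of the 9 genes varied more between libraries than the median tested gene, whose coefficient of variation was 14.7% in IPFSCs and 14.9% in ScASCs. FBN1 was the exception in either cell type.

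The same replicate number was highest in both cell types for FBN2 and FBLN2 (replicate 1) and for FBLN1 and FBLN7 (replicate 4), which is 4 of the 9 genes, against 40.0% of all tested genes. By replicate number, FBN1, FBN2, FBLN2, EFEMP1 and ABI3BP were lower in the IPFSC library in all 4 pairs, as were 15.6% of all tested genes. FBLN7 and MFAP5 were higher in all 4 pairs, as were 16.0% of all tested genes.

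Other genes of the elastic fibre pathway were counted from 6 lists of 64 genes, of which 46 were listed and 39 tested. Of these, 8 rose and 2 fell in IPFSCs in limma, where 2.67% of all tested genes rose and 2.31% fell. With the replicate number as a block 11 rose and 4 fell, where 4.31% of all tested genes rose and 3.74% fell. The lysyl oxidases, which cross-link elastin and collagen, had 3 of 5 genes that rose (LOXL1, LOXL2 and LOXL3) and a median log2 fold change of 1.08. LOXL2 had 602, 597, 685 and 679.7 RPKM in IPFSC replicates 1 to 4, against 322, 260.0, 300.4 and 335 RPKM in ScASC replicates 1 to 4. Its libraries were far apart between the cell types and close within them (log2 fold change 1.08, standard error 0.10, adjusted p = 0.00114 in limma). LOXL3 had a mean of 84.8 ± 31.8 RPKM in IPFSCs and 25.5 ± 4.64 RPKM in ScASCs (SD, n = 4 each; log2 fold change 1.63, adjusted p = 0.0128 in limma). With the block, LOX and LOXL4 passed too (adjusted p = 0.0242 and 0.0322 in limma, against 0.241 and 0.179 without it), so that all 5 lysyl oxidases rose in that fit. For LOX and LOXL4 the cell types overlapped, and the IPFSC library was higher in all 4 pairs.

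Of 16 tested genes of microfibril and elastic fibre assembly, 4 rose and 0 fell in limma, with a median log2 fold change of 0.35. At an unadjusted p under 0.05 in limma, 7 were higher and 2 lower. ADAMTSL3, of a family of secreted glycoproteins some of which bind fibrillin-1, had 6.72, 2.57, 3.85 and 3.52 RPKM in IPFSC replicates 1 to 4, against 0.0356, 0.311, 0.229 and 0.172 RPKM in ScASC replicates 1 to 4. It was near 0 in ScASCs and above 2 RPKM in each IPFSC library (log2 fold change 2.07, standard error 0.23, adjusted p = 0.00234 in limma). FN1 encodes fibronectin, the fibrils of which guide microfibril assembly. FN1 had a mean of 1750 ± 561 RPKM in IPFSCs and 798 ± 189 RPKM in ScASCs (SD, n = 4 each; log2 fold change 1.11, adjusted p = 0.0409 in limma). MFAP4, which binds elastin and fibrillin, averaged 7.61 ± 2.10 RPKM in IPFSCs and 2.98 ± 1.33 RPKM in ScASCs (adjusted p = 0.0462 in limma), and HMCN1, a large relative of the fibulins, averaged 3.59 ± 1.93 RPKM in IPFSCs and 0.922 ± 0.428 RPKM in ScASCs (adjusted p = 0.0454; SD, n = 4 each). The MFAP4 call was lost without any of the 8 libraries, the FN1 call without any but IPFSC replicate 1 or ScASC replicate 4, and the HMCN1 call without any but IPFSC replicate 4 or ScASC replicate 1, with an adjusted p of at most 0.133, 0.122 and 0.116 over all alternatives. All 3 calls were also lost with no filter on low values, those of MFAP4 and FN1 with median-ratio scaling, and that of MFAP4 with a pseudocount of 0.1. With the block, BGN (biglycan) rose as well (adjusted p = 0.0387 in limma), EMILIN2 and SVEP1 fell (adjusted p = 0.00902 and 0.0398), and HMCN1 no longer passed (adjusted p = 0.0591), which left 4 that rose and 2 that fell.

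Integrins are the receptors through which cells bind fibrillin and fibulins. In limma 2 of 7 tested integrin genes fell, ITGA8 and ITGB3, and the other 5 did not pass, with a median log2 fold change of −0.10. With the replicate number as a block, ITGA4, the α4 chain, rose as well (adjusted p = 0.0470 in limma, against 0.172 without it; higher in IPFSCs in all 4 pairs). ITGB3, the β3 chain, had 24.3, 24.0, 15.7 and 22.3 RPKM in IPFSC replicates 1 to 4, against 84.2, 54.7, 36.5 and 39.3 RPKM in ScASC replicates 1 to 4. No library of one cell type reached the range of the other (log2 fold change −1.22, adjusted p = 0.0331 in limma). ITGA8, the α8 chain, had a mean of 0.919 ± 0.751 RPKM in IPFSCs and 4.32 ± 1.64 RPKM in ScASCs (SD, n = 4 each; log2 fold change −1.49, adjusted p = 0.0289 in limma). The ITGB3 call was lost without any one IPFSC library or ScASC replicate 2 (adjusted p of at most 0.100), and the ITGA8 call without IPFSC replicate 1, 3 or 4 or ScASC replicate 1 or 2 (at most 0.0895).

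Elastases cleave mature elastic fibres. Of 5 tested elastase genes, 0 passed the test in limma, also at an unadjusted p under 0.05, and their median log2 fold change was −0.24. Of 4 tested inhibitors, RECK, a membrane-anchored inhibitor of metalloproteases, rose and 3 did not pass, with a median log2 fold change of 0.60. RECK had 18.8, 13.3, 14.0 and 11.1 RPKM in IPFSC replicates 1 to 4, against 8.16, 5.77, 4.90 and 6.64 RPKM in ScASC replicates 1 to 4. The cell types did not overlap (log2 fold change 1.05, adjusted p = 0.0129 in limma). For GLB1 and CTSA, the tested genes of the elastin receptor complex on the cell surface, the log2 fold changes were −0.044 and 0.037, and neither passed (adjusted p = 0.946 and 0.989 in limma).

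**Figure D4:**
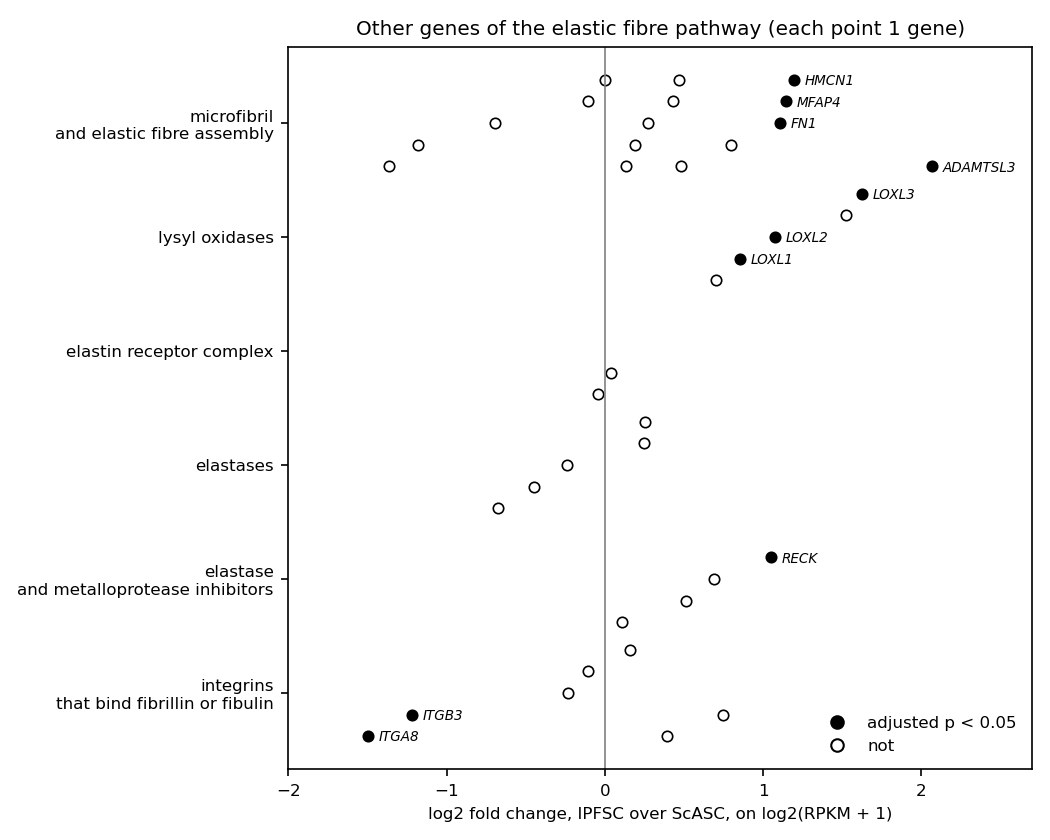
Log2 fold changes, IPFSCs over ScASCs, of the 39 tested genes in 6 lists of the elastic fibre pathway, 1 point a gene; the height within a list only separates the points. Filled points had an adjusted p under 0.05 in limma and are named: 8 lie to the right of 0 and 2, ITGA8 and ITGB3, to the left.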

How the data were processed

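RNA-seq reads of 8 libraries were aligned by the authors to OryCun2.0 (rabbit) with Subread, assigned to Ensembl genes by featureCounts and scaled to RPKM; the strand setting is not given in the sources used here, nor are tool versions. The values deposited by the authors follow log2(RPKM + 1), with 0 written as 1e-05. This scale was read from the values: 2 to the power of the value, minus 1, gave 205 to 245 genes of low expression the same ratio to ScASC replicate 1. The deposited log2 fold changes, p-values and adjusted p-values of the authors' edgeR comparison, and a mean log2 CPM, were not used. The 9 duplicated identifiers had identical values and were counted once.

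Genes with a mean above 1 RPKM in at least 1 cell type were tested with limma 3.58.1 in R 4.3.3 on log2(RPKM + 1), with cell type as the single model term and a trend in the variance, and called at an adjusted p under 0.05. The fit was tested on simulated data. The paper calls the cells donor-matched without saying which libraries share a rabbit. Deviations from the group means of same-numbered libraries correlated across 11294 genes with r = 0.534, 0.550, 0.253 and 0.660 for numbers 1 to 4. Libraries of different numbers had r from −0.590 to 0.335. ScASC replicate 3 had a higher r with IPFSC replicate 4 (0.329) than with IPFSC replicate 3. The numbers were taken as pairs, and number 3 is the least certain of them. The paper gives 4 rabbits as the source of the libraries of each cell type, so p-values measure the spread between libraries of different rabbits. The main fit has no term for the rabbit, so differences between rabbits stay in its error. Whether a rabbit gave more than 1 culture of a cell type is not stated. Alternatives were each library left out, the replicate block, a pseudocount of 0.1, no filter, median-ratio scaling, no trend and the study's fold change criterion of 2.

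The genes and lists were chosen with earlier results of these data known. Named were all genes of the rule, up to 4 called genes per pathway list by smallest p, fibrillin and fibulin relatives, and the 3 genes most like ABI3BP, FBN1 and FBLN7; EMILIN2, SVEP1, BGN, ITGA4, LOX, LOXL4, GLB1, CTSA, ACTA2 and the neighbouring genes were added afterwards. EFEMP2 and MFAP2 were not analysed here. Of other cell type markers, the chondrocyte list had 4 of 6 genes tested. Of these, ACAN rose and COL2A1, MATN1 and MATN3 did not pass. COL2A1 was lower in every IPFSC library (8.47 to 12.4 RPKM) than in any ScASC library (13.9 to 17.4 RPKM). In limma it differed by −0.51 on the log2 scale, and 0.0749 was the adjusted p. The adipocyte, skeletal muscle, Schwann cell and macrophage lists had 1 gene tested each, which did not pass. Only 3 of 5 adipocyte and 4 of 6 skeletal muscle genes were listed. For the epithelial list this was 3 of 4, and for the synovial lining list 2 of 4. No epithelial or synovial lining gene exceeded the filter. Below it, the synovial lining gene CLIC5 had 0.237 to 0.436 RPKM in IPFSCs and 0 in all ScASC libraries. CRTAC1, the other one listed, overlapped between the cell types. The presence of synovial lining cells was not tested.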

Additional observations from a re-analysis of the deposited data

Results flagged for a closer look

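In groups of 4 libraries, values were checked for a library far from the other 3 relative to the range of the group, in 44 groups, of which chance alone flags about 1 in 20. FBLN1 in IPFSC replicate 4 had 53.1 RPKM, against 14.6 to 20.6 RPKM in the other IPFSC libraries; ScASC replicate 4, of the same number, was the highest ScASC library. FBLN2 in IPFSC replicate 1 had 19.4 RPKM, above the other 3 at 8.15 to 9.02 RPKM. The ratio of EFEMP1 to FBN1 was 0.327 in IPFSC replicate 3, below the other IPFSC libraries at 0.799 to 0.848; EFEMP1 itself was lowest in that library, at 143 RPKM.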

How the results depend on the processing

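The 9 genes kept their direction in every alternative except FBLN1, whose log2 fold change was 0.0090 without IPFSC replicate 3 and 0.20 without ScASC replicate 4, and FBLN5, with 0.013 without IPFSC replicate 2 and 0.0091 without IPFSC replicate 4. Over the libraries left out, FBLN1 ranged from −0.59 to 0.20 and FBLN5 from −0.29 to 0.013. With the replicate block, 2 of the 9 genes were higher and 4 lower, and over all genes 487 were higher and 422 lower, against 301 and 261 without it; apart from FBN2 and MFAP5, the block changed no other call of the 9 genes. With each library left out in turn, 1 to 2 of the 9 genes were higher and 1 to 4 lower, and over all genes 166 to 297 were higher and 149 to 277 lower; without ScASC replicate 2 only ABI3BP was called lower. With the study's fold change criterion of 2 added to the limma call, 182 genes were higher and 141 lower over all genes. Among the 9 genes, 1 was higher and 3 lower. The study applied its criteria to an edgeR comparison, so these are not its own counts. The difference in the log2 ratio of FBN2 to FBN1 was −1.84 to −1.08 with a library left out and did not pass the permutation test in any alternative. In the replicate block it could not pass, as 0.125 is the smallest p that its 16 assignments allow. MFAP5 in ScASCs had the lowest mean of the 9 genes, at 0.191 to 1.57 RPKM, and the number of reads behind these values is unknown.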

Other observations

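Over the 8 libraries, the genes whose log2(RPKM + 1) followed ABI3BP most closely were PLEKHB1, SGK1 and PTK2B, with Pearson's r of 0.995, 0.994 and 0.990. SGK1, a kinase induced by glucocorticoids and serum, had 12.6 ± 4.15 RPKM in IPFSCs and 88.4 ± 24.9 RPKM in ScASCs (SD, n = 4 each). PTK2B, a relative of focal adhesion kinase, had 1.52 ± 1.39 RPKM in IPFSCs and 14.3 ± 3.17 RPKM in ScASCs (SD, n = 4 each). For FBN1 the closest were PNPLA6, WDR26 and VAT1L, with r of 0.983, 0.973 and 0.971, and for FBLN7 they were DMXL1, PLCE1 and MAP4K4, with r of 0.992, 0.988 and 0.984. The libraries of the cell types lie apart for ABI3BP, FBN1 and FBLN7, so the 8 points fall into 2 clusters, and the correlations are given as a description.

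The genes next to the 9 on the chromosome were taken from the RefSeq annotation of another rabbit assembly, mOryCun1.1, in which none of the 9 lies next to another and no neighbouring protein-coding gene overlaps one. Of 18 neighbours, 16 had a row of the same symbol and 9 were tested. Of these, 1 passed the test: SLC12A2, a sodium, potassium and chloride transporter next to FBN2, had 27.2 ± 5.45 RPKM in IPFSCs and 15.6 ± 1.61 RPKM in ScASCs (SD, n = 4 each; log2 fold change 0.74, adjusted p = 0.0282 in limma). TFG, next to ABI3BP, had 82.3 ± 5.56 RPKM in IPFSCs and 96.5 ± 6.91 RPKM in ScASCs (SD, n = 4 each; adjusted p = 0.195 in limma), and IMPG2 on the other side stayed below the filter. TMEM87B and ZC3H8 on either side of FBLN7 had log2 fold changes of 0.071 and 0.15 (adjusted p = 0.858 and 0.622 in limma).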
